A study of Mus musculus with 2 samples.

Results

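The collagen-high Alcam Svep1 stellate cells were 1492 of 14929 hepatic stellate cells (HSCs) that passed the cell filters, out of 19955 barcodes in all. They were chosen by a score, the mean of log1p(count per 10000 UMIs) over Alcam, Svep1, Fbn2 and Ano4, and the 10% of HSCs with the highest score in each library are called members here. There were 809 members among 8092 HSCs of the p16-LRTD library and 683 among 6837 HSCs of the p16-Alb-LRTD library. A barcode counted as an HSC when Lrat, Ecm1, Hgf and Reln together reached at least 15 per 10000 UMIs, a UMI being 1 counted RNA molecule. The filters kept barcodes with at most 5% mitochondrial UMIs, 2000 to 7000 genes and at most 50000 UMIs.

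HSCs lie between hepatocytes and the sinusoidal endothelium and store retinyl esters in the healthy liver. After injury they can turn into matrix-producing cells that lay down fibrillar collagen, chiefly types I and III, and they are the main source of scar matrix in toxic liver fibrosis. Alcam encodes a cell adhesion molecule of the immunoglobulin superfamily, Svep1 a large secreted matrix protein, Fbn2 a microfibril protein and Ano4 a membrane protein of the anoctamin family.

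Both libraries came from livers of male mice on a C57BL/6 background that had received the hepatotoxin carbon tetrachloride (CCl4), tamoxifen and diphtheria toxin over 4 weeks, and HSCs were purified on a Nycodenz gradient after pronase and collagenase digestion. Both genotypes carried p16-CreERT2, a recombinase driven by the p16 locus, and the R26-CAG-LSL-RSR-tdTomato-2A-DTR allele, from which tdTomato and the diphtheria toxin receptor are made once Cre and Dre have each removed a stop. Alb-DreERT2, the hepatocyte-specific second recombinase, was present in p16-Alb-LRTD only, so that hepatocytes with high p16 were the intended target of the toxin there. The p16-Alb-LRTD mice were heterozygous, and p16-LRTD mice had the same treatment without Dre. The age of the mice and the number pooled per library are not given in the sources used here, and leaky receptor expression past the Cre stop is a limit that the study raises. There was 1 library of each genotype, so no difference below was tested, and the genotype, the mice and the library preparation cannot be told apart. Intervals are 95% intervals for counting error only.

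The depth of members was high in both libraries. The median was 20989 UMIs per member against 16834 in the other HSCs of p16-LRTD, and 18303 against 18322.5 in p16-Alb-LRTD. Members were thus deeper than other HSCs in the first library only, and levels are given as CPM, the UMIs of a gene per 1000000 UMIs after adding up all cells of a group. The libraries shared 95 cell barcodes, of which 0 were members in p16-LRTD and 2 were members in p16-Alb-LRTD.

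The values that chose the members are given as a description. The lowest member score was 0.830 in p16-LRTD and 0.832 in p16-Alb-LRTD, and the median member score was 1.26 and 1.27. Among the other HSCs, 57.6% and 54.4% had no UMI of the 4 genes. The cutoffs of the 2 libraries nearly coincided: 685 of 6837 HSCs of p16-Alb-LRTD (10.0%, Clopper-Pearson interval 9.32 to 10.8) reached the p16-LRTD cutoff. All 4 genes were detected in 348 members of p16-LRTD (43.0%) and in 245 of p16-Alb-LRTD (35.9%), while 3 and 7 members passed on a single gene. The score ran continuously across the cutoff, so the members are the upper end of a range of that score. The 20 members nearest the cutoff had Col1a1 at 7194 CPM, against 4368 CPM in the 20 cells just outside it, in p16-LRTD, and the same pair was 951 and 1327 CPM in p16-Alb-LRTD.

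**Figure D1:**
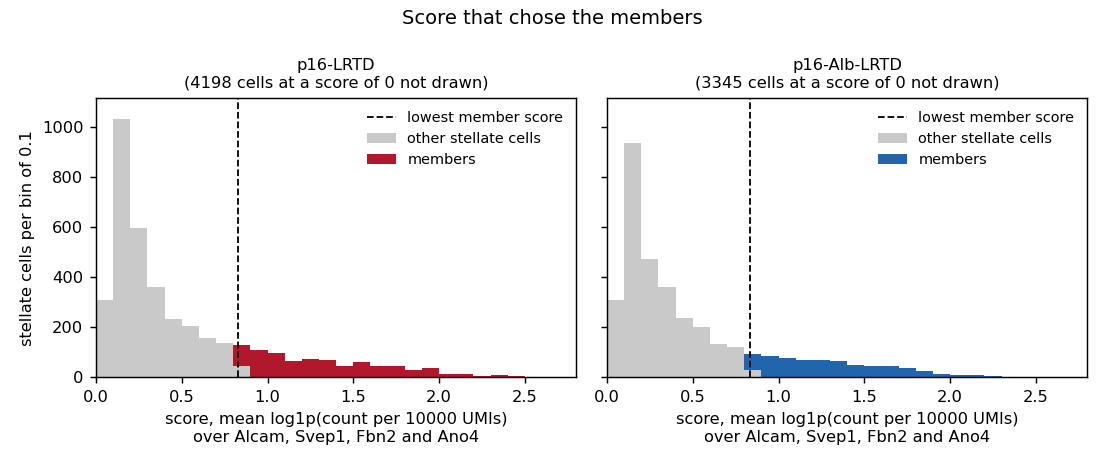
Number of HSCs (vertical axis, cells per bin of 0.1) by score (horizontal axis) in each library, with members in colour, other HSCs in grey and the lowest member score as a dashed line; the 4198 and 3345 cells at a score of 0 are not drawn. Past the tallest bin the counts decline toward high scores with no gap at the cutoff, which lies at 0.830 in p16-LRTD and 0.832 in p16-Alb-LRTD.

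Alcam (chromosome 16, 52248996 to 52454074 on GRCm38) stood at 2323 CPM in members and 83.4 CPM in other HSCs of p16-LRTD, and at 2153 and 106.3 CPM in p16-Alb-LRTD. Svep1 (chromosome 4, 58042442 to 58206859) stood at 168.3 and 3.31 CPM in p16-LRTD and at 242.9 and 5.54 CPM in p16-Alb-LRTD. Of all Alcam UMIs of HSCs, members held 78.9% in p16-LRTD and 69.2% in p16-Alb-LRTD, and of all Svep1 UMIs 87.3% and 82.9%. Ano4 was the least restricted of the 4 genes in p16-LRTD, where members held 49.7% of its UMIs. Per cell, the median Alcam level in members was 19.2 per 10000 UMIs in p16-LRTD (10th to 90th percentile 6.56 to 47.1) and 18.7 in p16-Alb-LRTD (7.01 to 38.7), and the median in other HSCs was 0 in both.

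The members had far more type I and type III collagen RNA than the other HSCs, in both libraries. Col1a1, the gene of the alpha-1 chain of type I collagen (chromosome 11, 94936224 to 94953042), was at 6997 CPM in members and 1221 CPM in other HSCs of p16-LRTD. In p16-Alb-LRTD it was at 1870 and 332.3 CPM. The log2 ratio of members to other HSCs was 2.52 (2.51 to 2.53) in p16-LRTD and 2.49 (2.47 to 2.52) in p16-Alb-LRTD, a fold of 5.73 and 5.63. The 2 libraries thus differed several-fold in Col1a1 level and hardly in the ratio of members to the rest. When only cells with 10000 to 30000 UMIs were used, the log2 ratio was 2.54 and 2.50.

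Col1a2, the alpha-2 chain of type I collagen (chromosome 6, 4504814 to 4541544), followed the same order of the 4 cell groups. It stood at 6385 CPM in members and 1717 CPM in other HSCs of p16-LRTD, and at 2165 and 848.4 CPM in p16-Alb-LRTD, with log2 ratios of 1.90 (1.88 to 1.91) and 1.35 (1.33 to 1.37). Col3a1, type III collagen (chromosome 1, 45311538 to 45349706), stood at 9522 and 3250 CPM in p16-LRTD and at 2532 and 1170 CPM in p16-Alb-LRTD, with log2 ratios of 1.55 (1.54 to 1.56) and 1.11 (1.10 to 1.13). For both type I chains the other HSCs of p16-LRTD lay below the members of p16-Alb-LRTD, and for Col3a1 they lay above.

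Members made up 11.9% of the HSC UMIs of p16-LRTD and 9.97% of those of p16-Alb-LRTD. They held 43.5% and 38.4% of the Col1a1 UMIs of HSCs, 33.4% and 22.0% of the Col1a2 UMIs and 28.3% and 19.3% of the Col3a1 UMIs. Most of the Col1a1 RNA of HSCs was therefore outside the members in both libraries.

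Levels of the 3 main collagen chains were lower step by step over 6 bins of the score, from members to cells with a score of 0; within the members and next to the cutoff this order did not always hold. In p16-LRTD, Col1a1 was at 6997 CPM in members, 4078 CPM in the next 10% of HSCs by score, 1801 and 1177 CPM in the 10% bins after that and 446.9 CPM in cells with no UMI of the 4 genes. In p16-Alb-LRTD the same steps were 1870, 852.8, 545.4, 325.7 and 193.8 CPM. The first step was smaller for Col3a1, from 9522 to 8177 CPM in p16-LRTD and from 2532 to 2053 CPM in p16-Alb-LRTD. Lrat, the retinol esterification enzyme that marks quiescent HSCs, was lowest in members in both libraries, at 845.4 and 1182 CPM, and lay between 1213 and 1395 CPM in the other bins of p16-LRTD and between 1472 and 1646 CPM in those of p16-Alb-LRTD. Lrat was 1 of the 4 genes whose sum defined HSCs, so its level was not independent of the rule. The rule set a floor for that sum, not for Lrat alone.

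**Figure D2:**
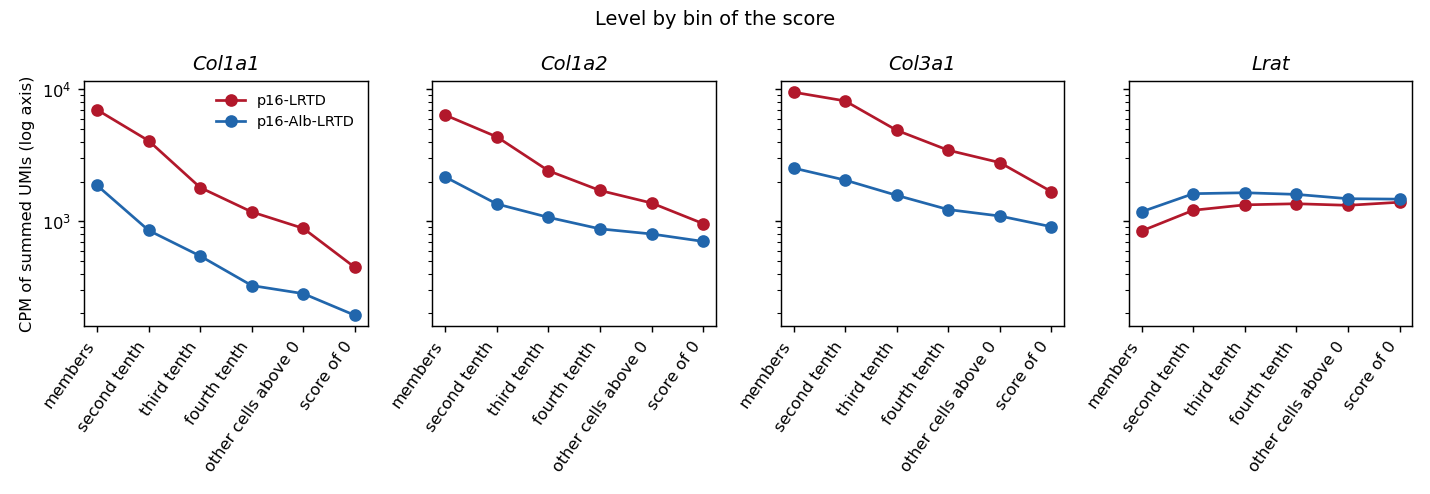
CPM of summed UMIs (log axis) of Col1a1, Col1a2, Col3a1 and Lrat in 6 bins of the score, from members on the left to cells with a score of 0 on the right, with 1 line per library. The 3 collagen genes fall from left to right in both libraries, Col1a1 from 6997 to 446.9 CPM in p16-LRTD and from 1870 to 193.8 CPM in p16-Alb-LRTD, while Lrat is lowest in members.

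The sequence around the start of genes that were high together in members is shown for orientation, since the score genes and the collagen genes were high in the same cells. The 250 bases before the start annotated by RefSeq (build GRCm38.p6) are given 5′ to 3′ on the strand of the gene, with capitals marking CCAAT or its reverse complement ATTGG, the core of the NF-Y box, and GGGCGG or CCGCCC, the core of the Sp1 GC box. The regions are chr16:52453082-52453331 on the minus strand for Alcam, chr4:58206597-58206846 on the minus strand for Svep1, chr6:4505368-4505617 on the plus strand for Col1a2 and chr1:45311288-45311537 on the plus strand for Col3a1. The start of RefSeq differs from that of the GENCODE gene spans given above for the first 3 genes, so that the windows of Alcam, Svep1 and Col1a2 lie inside those spans.
Alcam: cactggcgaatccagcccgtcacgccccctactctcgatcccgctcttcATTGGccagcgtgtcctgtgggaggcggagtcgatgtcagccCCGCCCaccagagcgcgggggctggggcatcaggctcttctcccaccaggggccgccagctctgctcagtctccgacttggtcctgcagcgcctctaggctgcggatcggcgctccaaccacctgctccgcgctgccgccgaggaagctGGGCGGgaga
Svep1: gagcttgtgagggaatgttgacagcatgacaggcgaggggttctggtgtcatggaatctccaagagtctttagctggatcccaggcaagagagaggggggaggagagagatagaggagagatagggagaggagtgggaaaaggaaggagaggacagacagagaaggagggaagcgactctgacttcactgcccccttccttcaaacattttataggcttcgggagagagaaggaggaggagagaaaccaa
Col1a2: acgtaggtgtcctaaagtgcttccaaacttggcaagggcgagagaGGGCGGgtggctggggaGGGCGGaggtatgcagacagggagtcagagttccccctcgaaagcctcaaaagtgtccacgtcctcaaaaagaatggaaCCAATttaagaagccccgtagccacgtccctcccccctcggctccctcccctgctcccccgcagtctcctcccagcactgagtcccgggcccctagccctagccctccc
Col3a1: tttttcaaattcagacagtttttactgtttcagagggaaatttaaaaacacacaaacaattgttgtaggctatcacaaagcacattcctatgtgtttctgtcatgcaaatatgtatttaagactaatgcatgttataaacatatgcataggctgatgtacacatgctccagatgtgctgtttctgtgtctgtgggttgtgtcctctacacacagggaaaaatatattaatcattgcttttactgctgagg
Alcam held 1 CCAAT and 2 GGGCGG matches and Col1a2 likewise held 1 and 2, whereas Svep1 and Col3a1 held 0 of either in these windows. Of 32851 mouse promoter windows of the same length, 33.8% held a CCAAT and 32.7% a GGGCGG match on either strand, so both motifs are common, and a match is only a description of the letters.

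Among all genes, the same contrast of members with other HSCs was summarised by counting genes at least 2-fold apart in the same direction in both libraries. Of 8789 genes with at least 10 CPM on average, the rule genes left out, 277 were higher (3.15%) and 185 were lower (2.10%). Since members and other HSCs were separated by the score itself, and genes that vary with it move with the cut, these shares are a backdrop for the counts that follow, and nothing is read from the comparison.

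Of 11 fibrillar collagen genes, 7 reached that level, 5 were at least 2-fold higher in members in both libraries and 1 was at least 2-fold lower. The higher ones were Col1a1, Col1a2, Col3a1, Col5a2 and Col27a1. Col5a2, a chain of the type V collagen that starts fibrils, stood at 725.4 against 265.4 CPM in p16-LRTD and at 295.5 against 131.2 CPM in p16-Alb-LRTD. Its partner chain Col5a1 did not follow, with log2 ratios of 0.04 and -0.39. Col24a1 was the exception, at 32.1 against 74.5 CPM and 32.8 against 82.2 CPM. The median log2 ratio of the list was 1.501 in p16-LRTD and 1.17 in p16-Alb-LRTD, beside -0.01 and 0.05 over all genes.

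Among the 18 nonfibrillar collagen genes outside the basement membrane, 8 were measured at that level, and Col6a2 and Col12a1 were 2-fold higher in both libraries. Col12a1, a collagen that binds to the surface of fibrils, was mostly in members, at 46.6 against 3.87 CPM in p16-LRTD and 27.4 against 1.28 CPM in p16-Alb-LRTD. Col6a3, a chain of beaded microfibrils, had log2 ratios of 1.52 and 0.94. Col14a1, another fibril-associated collagen, was on the other side, at 1720 against 2559 CPM and 1278 against 2244 CPM.

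Basement membrane genes split. Of 18 listed, 12 were counted, 3 were 2-fold higher in members in both libraries (Col4a5, Col15a1 and Lama2) and 0 were lower. Col4a5, a less common type IV collagen chain, stood at 93.2 CPM in members and 4.84 CPM in other HSCs of p16-LRTD, and at 78.5 and 1.93 CPM in p16-Alb-LRTD. The common chains Col4a1 and Col4a2 were not higher, with log2 ratios of -0.42 and -0.60 for Col4a1 and -0.00 and -0.35 for Col4a2. Laminin gamma-1 (Lamc1) had log2 ratios of -0.84 and -0.77. The median of the list was 0.02 and -0.06.

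Several elastic fibre genes were high in members. Of 13 counted, 4 were 2-fold higher in both libraries (Eln, Fbln1, Mfap2 and Ltbp2) and 0 lower. Eln, which encodes elastin, stood at 167.0 against 38.4 CPM in p16-LRTD and 181.3 against 50.1 CPM in p16-Alb-LRTD. Ltbp2, a microfibril-associated protein, stood at 101.2 against 3.51 CPM and 58.7 against 1.14 CPM. Fibronectin (Fn1), deposited early in scars, was lower in members, at 590.0 against 961.4 CPM and 281.5 against 641.5 CPM.

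The enzymes that fold and process procollagen were mostly at similar levels in members and other HSCs. Of 26 genes for processing and crosslinking, 23 were counted, and the 2 that were 2-fold higher in both libraries, Lox and Loxl1, are lysyl oxidases, which crosslink collagen and elastin outside the cell. Loxl1 stood at 260.6 against 61.5 CPM in p16-LRTD and at 149.4 against 26.6 CPM in p16-Alb-LRTD. The collagen chaperone Serpinh1 had log2 ratios of 0.27 and -0.03, the prolyl hydroxylase subunit P4ha1 -0.10 and -0.08, and the median of the list was 0.00 and -0.10. The procollagen N-proteinase Adamts2 lay between, with log2 ratios of 1.19 and 0.80.

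**Figure D3:**
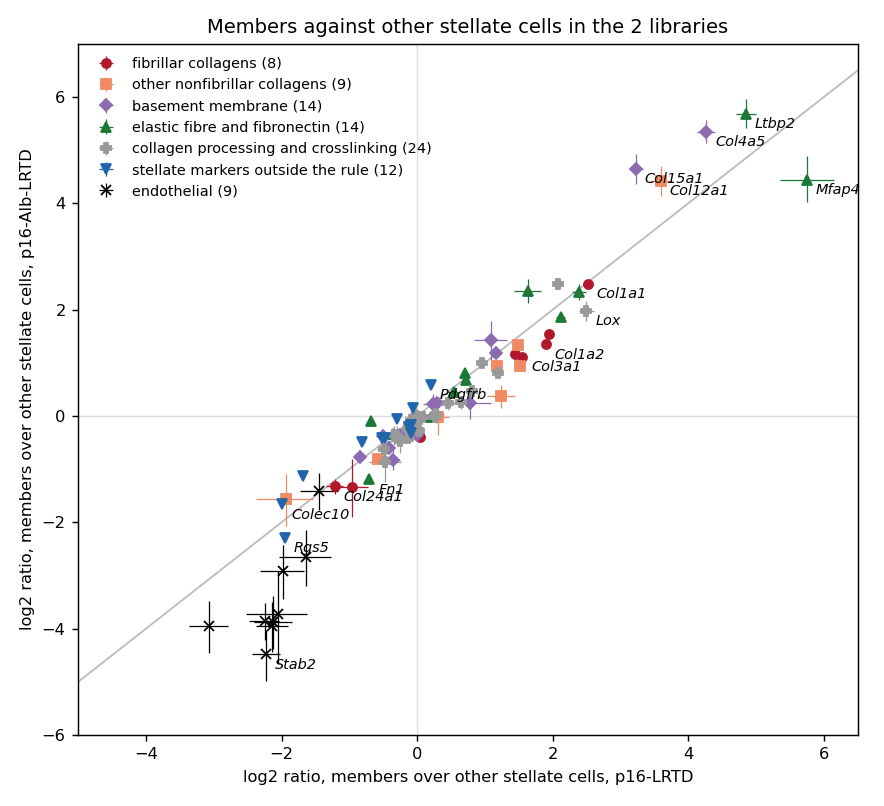
Log2 ratio of members to other HSCs in p16-LRTD (horizontal axis) and p16-Alb-LRTD (vertical axis) for genes with at least 5 CPM on average, 1 point per gene with its 95% counting interval, coloured by list, with the number of genes in brackets and the line of equal ratios in grey. Most fibrillar collagens, such as Col1a1 (2.52 and 2.49), and most elastic fibre genes lie to the upper right, with Col24a1 and Fn1 to the lower left, most collagen processing genes cluster around 0, and endothelial genes lie to the lower left.

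Other secreted matrix genes were high as well. Of 9 small leucine-rich proteoglycans, 7 were counted and 3 were 2-fold higher in both libraries: Lum, Fmod and Podn. Lum, which encodes the collagen-binding lumican, stood at 1826 against 753.9 CPM in p16-LRTD and 1438 against 558.3 CPM in p16-Alb-LRTD, while Prelp was lower, at 791.2 against 1341 CPM and 770.9 against 1382 CPM. Of 18 matricellular genes, 13 were counted and 5 were higher, namely Sparcl1, Thbs3, Tnxb, Smoc2 and Cthrc1. Cthrc1, known from collagen-producing fibroblasts, was low in members, at 33.1 and 4.89 CPM, and lower still in other HSCs, at 3.90 and 0.338 CPM. Of 18 metalloproteinases and inhibitors, 11 were counted and Mmp2, Mmp23 and Adamts5 were higher. Mmp2, a gelatinase, stood at 369.5 against 120.4 CPM and 470.3 against 138.2 CPM.

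Contractile genes did not move as a group. Acta2, the smooth muscle actin used as a mark of myofibroblasts, was 2-fold higher in members in both libraries but at a low level, 103.2 against 37.1 CPM in p16-LRTD and 32.9 against 10.1 CPM in p16-Alb-LRTD. After each cell had been thinned to 5000 UMIs, an Acta2 UMI was found in 15.99% of the p16-LRTD members (13.5 to 18.7) and in 3.96% of the p16-Alb-LRTD members (2.62 to 5.71), so most members had none at that depth. Thinning left out 2 and 1 members that were shallower, and without it the shares were 32.1% and 7.32%. In Kupffer-marked cells, which should lack the transcript, a thinned share of 0.612% was found in p16-LRTD (median depth 20393 UMIs) and 0% in p16-Alb-LRTD (25357 UMIs). Myh11, smooth muscle myosin, was lower in members, at 31.7 against 166.9 CPM and 22.5 against 79.2 CPM. Of 8 contractile genes counted, these 2 were the ones past 2-fold in both libraries.

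Members held the HSC identity genes outside the rule, at reduced levels. Of 12 such markers, 11 were lower in members of p16-LRTD and 10 in p16-Alb-LRTD, where 5313 of 10412 and 4483 of 10317 of all genes were lower, and 3 were at least 2-fold lower in both (Colec10, Colec11 and Rgs5). Colec11, a soluble collectin made by HSCs, stood at 1076 against 3461 CPM in p16-LRTD and 1293 against 2828 CPM in p16-Alb-LRTD. The transcription factors Lhx2 (-0.12 and -0.22) and Hand2 (-0.10 and -0.33) had log2 ratios near 0. Pdgfrb, the PDGF receptor of mesenchymal cells, was the marker higher in members in both libraries, with log2 ratios of 0.20 and 0.59. Summed over the 12 markers, members had 19372 and 22950 CPM, other HSCs 30590 and 32717 CPM, and Kupffer-marked cells 1222 and 926 CPM.

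Zonation genes leaned to the central vein side. Of 6 markers of central vein HSCs, 3 (Spon2, Podn and Loxl1) were 2-fold higher in members in both libraries and 0 lower. Of 5 markers of portal vein HSCs, 4 (Ngfr, Itgb3, Igfbp3 and Il34) were 2-fold lower and 0 higher. Tagln, the other portal marker, was higher in members of p16-LRTD and lower in those of p16-Alb-LRTD, by less than 2-fold in each. Itgb3, the integrin beta-3 chain, stood at 27.4 against 187.9 CPM in p16-LRTD and 22.4 against 163.0 CPM in p16-Alb-LRTD. Rspo3, a Wnt agonist of central HSCs, did not follow, with log2 ratios of -0.44 and -0.43. Podn and Loxl1 also stand in the matrix lists above, so the central list is not separate from them. The portal list likewise shares Itgb3 with the integrin list and Tagln with the contractile list.

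Guidance genes and integrins included genes on both sides. Of 15 guidance genes counted, 5 were 2-fold higher in both libraries (Sema3a, Sema5a, Plxna2, Plxna4 and Ncam1) and Sema6d was lower. Plxna4, a semaphorin receptor, stood at 480.8 against 30.5 CPM in p16-LRTD and 549.1 against 49.4 CPM in p16-Alb-LRTD, but it was also detected in endothelial-marked cells, of which 42.5% and 54.8% had a UMI after thinning. Plxna2 was found in more endothelial-marked cells (91.8% and 86.5%) than members (12.4% and 14.96%). Of 10 integrin genes counted, Itga8 and Itgb8, the integrin alpha-8 and beta-8 chains, were higher, and Itga6 and Itgb3 were lower. Itga8 stood at 573.4 against 120.2 CPM and 423.7 against 101.8 CPM, and 37.7% and 45.6% of endothelial-marked cells had a UMI of it after thinning. The median log2 ratio of the integrin list was 0.27 and -0.17.

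In the signalling lists few genes were 2-fold apart in both libraries, beside shares over all genes of 3.15% higher and 2.10% lower. Of 18 TGF-beta pathway genes counted, Tgfb3 was the one at least 2-fold higher in both libraries, at 21.7 against 10.2 CPM in p16-LRTD and 23.1 against 6.92 CPM in p16-Alb-LRTD. Of 13 genes of the LIFR and STAT3 pathway, the pathway the study followed from hepatocytes to HSCs, Il6ra was the one past 2-fold, at 16.2 against 5.67 CPM and 31.0 against 6.83 CPM. The receptor genes Lifr (324.8 against 595.0 CPM and 315.7 against 490.2 CPM) and Il6st (399.6 against 549.8 CPM and 362.3 against 546.8 CPM) were lower in members. The TGF-beta list had 14 and 13 of its genes higher in members, where 5099 of 10412 and 5834 of 10317 of all genes were higher, with a median log2 ratio of 0.30 and 0.15. Of 4 PDGF pathway genes, 0 were 2-fold apart in both libraries, but all 4 were higher in members in each, with a median of 0.71 and 0.64. Among retinoid and lipid storage genes, Aldh1a2, a retinaldehyde dehydrogenase, and Lpl, lipoprotein lipase, were higher of 11 counted, and Lpl stood at 427.9 against 202.9 CPM and 400.2 against 175.8 CPM.

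Cell division RNA was lower in members than in other HSCs of p16-LRTD and at a similar level in p16-Alb-LRTD. Summed over 10 proliferation genes it was 64.6 CPM in members and 187.4 CPM in other HSCs of p16-LRTD, and 56.0 and 64.1 CPM in p16-Alb-LRTD. In p16-LRTD 10 of 809 members, and in p16-Alb-LRTD 0 of 683, which allows a share of up to 0.439% (a floor of 3 counts), held 5 or more such UMIs per 10000, against 2.38% and 0.325% of other HSCs, so that a lower share in members of p16-Alb-LRTD was not detectable with these cell numbers. Early-response genes of dissociation summed to 7429 CPM in members and 7534 CPM in other HSCs of p16-LRTD, and to 10522 and 11273 CPM in p16-Alb-LRTD.

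Outside the lists and at 50 CPM or more, the genes highest in members relative to other HSCs in both libraries were Ildr2, Dlg2, Colec12, Capn6, Gpr39, Adamtsl1, Igf1, Gas7, S100a6, Sulf1, C3 and Dclk1. Ildr2, an immunoglobulin-like receptor, stood at 64.4 against 1.96 CPM in p16-LRTD and 58.9 against 0.617 CPM in p16-Alb-LRTD. Igf1, insulin-like growth factor 1, stood at 132.6 against 11.2 CPM and 92.5 against 4.25 CPM, and C3, the central complement protein, at 138.9 against 16.3 CPM and 153.9 against 7.89 CPM. The lowest were Lsamp, Mest, Rgs4, Ntm, Ccl2, Esam, Mgll and Angptl6. Lsamp, a neural adhesion molecule, stood at 50.8 against 913.5 CPM and 40.1 against 470.5 CPM, and the chemokine gene Ccl2 at 41.9 against 276.1 CPM and 59.9 against 359.9 CPM.

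The name of these cells was checked against markers of the other cell types a gradient fraction can hold. Endothelial genes were at least 2-fold lower in members than in other HSCs for 7 of 7 counted, and their sum was 59.0 and 28.4 CPM in members, against 272.1 and 335.2 CPM in other HSCs and 15535 and 16002 CPM in endothelial-marked cells. Kupffer genes summed to 55.7 and 30.01 CPM in members, to 122.3 and 68.7 CPM in other HSCs and to 18512 and 22709 CPM in Kupffer-marked cells. Hepatocyte genes summed to 27.2 against 34.0 CPM in other HSCs of p16-LRTD and to 30.9 against 25.4 CPM in p16-Alb-LRTD. Cyp2e1, a cytochrome P450, was higher in members, at 4.598 against 0.932 CPM and 11.3 against 2.10 CPM, while albumin (Alb) was at 8.40 against 14.4 CPM and 7.33 against 8.72 CPM. The cholangiocyte list was higher in members, at 12.7 against 2.18 CPM in p16-LRTD and 41.1 against 3.51 CPM in p16-Alb-LRTD. Nearly all of it was Sox9, a transcription factor of bile duct cells among others, which was 2-fold higher in members in both libraries (log2 ratios 2.73 and 3.57) and in members of p16-Alb-LRTD over those of p16-LRTD (1.74). The other 4 genes of the list were at or near 0 in members, with 6 and 0 UMIs of Krt19, 1 and 0 of Epcam, and 0 and 0 of both Krt7 and Cldn7. Marked cells were those outside the HSC gate with at least 15 per 10000 UMIs of that list, so their high level of it was set by the choice. Without the cells holding 5 or more per 10000 UMIs of endothelial, Kupffer and lymphocyte genes together, the Col1a1 log2 ratio of members to other HSCs was 2.44 and 2.45.

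Portal fibroblast and mesothelial genes did move with the members, for part of each list. Of 10 portal fibroblast markers, the 4 counted (Dpt, Cd34, Gas6 and Eln) were 2-fold higher in both libraries, and the list summed to 704.1 CPM in members against 90.1 CPM in p16-LRTD and to 619.3 against 82.3 CPM in p16-Alb-LRTD. Eln also stands in the elastic fibre list above. Dpt, the gene of the matrix protein dermatopontin (chromosome 1, 164796644 to 164824266), stood at 305.0 against 25.9 CPM and 189.9 against 10.52 CPM. The defining markers Thy1 and Pi16 were near 0 in members, with 6 and 1 UMIs of Thy1 and 2 and 2 UMIs of Pi16 in the 2 libraries. The mesothelial list summed to 301.0 and 349.4 CPM in members and 9.53 and 7.83 CPM in other HSCs, nearly all of it Wt1. Of the other markers of that list, Msln had 2 and 0 UMIs, Krt19 6 and 0, Krt7 0 and 0 and Upk3b 7 and 5 in all members. The same members held HSC markers at the sums given above, and the part of fibroblasts or mesothelial cells in these values was not tested beyond these counts.

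**Figure D4:**
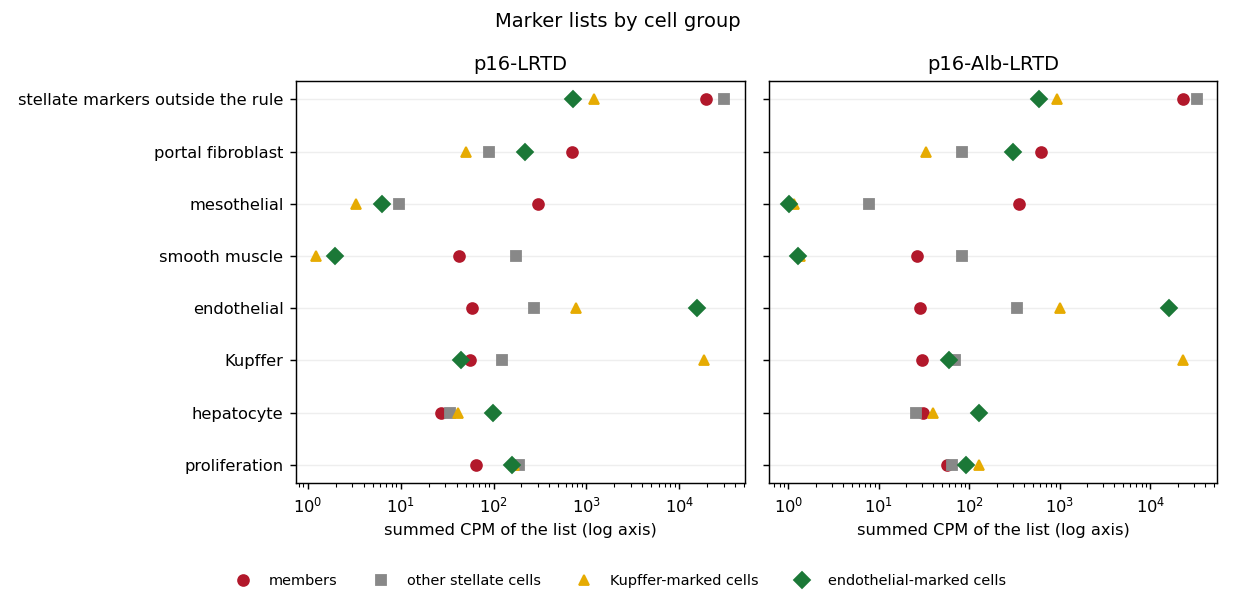
Summed CPM (log axis) of 8 marker lists in members, other HSCs, Kupffer-marked and endothelial-marked cells, 1 panel per library. Members lie close to other HSCs in HSC markers, highest of the 4 groups in portal fibroblast and mesothelial genes (704.1 and 301.0 CPM in p16-LRTD) and far below the marked cells in endothelial and Kupffer genes. The marked cells were chosen by those same endothelial and Kupffer lists.

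Wt1, a transcription factor of the mesothelium and of early liver mesenchyme (chromosome 2, 105126529 to 105173616), followed the members more closely than the collagens did. It stood at 299.8 CPM in members and 8.17 CPM in other HSCs of p16-LRTD, and at 348.9 and 7.54 CPM in p16-Alb-LRTD, log2 ratios of 5.20 (5.10 to 5.29) and 5.53 (5.43 to 5.64). Members held 83.2% and 83.7% of its HSC UMIs. After thinning, a Wt1 UMI was found in 56.0% of the p16-LRTD members (52.5 to 59.5) and in 63.2% of the p16-Alb-LRTD members (59.5 to 66.8), against 2.60% and 2.52% of other HSCs and 0.612% and 0% of Kupffer-marked cells. Wt1 detection was thus common in members of both genotypes and rare elsewhere.

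Ranking HSCs by other measures picked overlapping but different cells. Of the 10% of HSCs with the highest Wt1 level, 69.8% in p16-LRTD and 72.9% in p16-Alb-LRTD were members, and of the 10% with the highest Col1a1 level, 58.2% and 55.5%. Because each of these sets has the size of the member set, the same shares hold as shares of members. The Col1a1-high cells that were not members, whose Col1a1 level was fixed by that ranking, had Wt1 at 33.3 and 30.8 CPM, between the levels of members and of all other HSCs. Col1a2 in these cells was at 8119 and 2370 CPM, where members had 6385 and 2165 CPM. Col3a1 was at 14006 and 4048 CPM, where members had 9522 and 2532 CPM. The members were thus not the HSCs with the most collagen RNA. The 10% of HSCs with the highest Grid1, Inmt and Sdk2 score shared 30.5% and 22.4% of its cells with the members, the 10% with the highest Notch3 and Clstn2 score 0% and 0.732%, and that for Galnt14, Hhip and Cdh18 0% and 0.878%.

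Members also lay together by genes that the rule did not use. Each HSC was placed by 30 principal components of 2000 variable genes, without the 8 genes of the score and the gate, and its 15 nearest neighbours in the library were taken. Of the neighbours of members, 72.2% in p16-LRTD and 72.9% in p16-Alb-LRTD were members, where members were 10.0% and 9.99% of all HSCs, and of the neighbours of other HSCs 2.67% and 1.81%. With the 8 matrix lists left out as well, the values were 72.1% and 72.5%. Not all members sat in that neighbourhood, since 579 of 809 and 502 of 683 had mostly member neighbours.

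Members differed among themselves in collagen level. Per cell, Col1a1 ranged over the 10th to 90th percentile from 18.4 to 134.5 per 10000 UMIs in p16-LRTD, with a median of 55.4, and from 3.82 to 39.4 in p16-Alb-LRTD, with a median of 13.4. Other HSCs had medians of 2.69 and 1.61 and 90th percentiles of 28.5 and 7.95, so the 2 groups overlapped. Across thinned members, Col1a1 counts went with Col1a2 counts at a Spearman correlation of 0.87 in p16-LRTD (807 cells) and 0.70 in p16-Alb-LRTD (682 cells), as a description over cells of 1 library each. The correlation of Col1a1 with the summed score genes within members, whose range of the score was cut by the rule, was 0.03 and 0.17, against 0.40 and 0.28 in other HSCs. With Wt1 it was -0.01 and 0.14 in members, which is weak in counts as sparse as these.

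Splitting the members by score into 3 parts of equal size gave different orders for different genes. From the highest to the lowest part, Col1a1 went from 7751 to 7193 to 6053 CPM in p16-LRTD and from 2489 to 1816 to 1292 CPM in p16-Alb-LRTD, and Wt1 from 530.8 to 247.5 to 119.3 CPM and from 499.3 to 344.9 to 199.0 CPM. Col3a1 did not follow in p16-LRTD, at 8292, 10302 and 9997 CPM. Lrat ran the other way, at 603.9, 923.3 and 1011 CPM in p16-LRTD and 908.1, 1173 and 1472 CPM in p16-Alb-LRTD. Members with both a Wt1 and a Dpt UMI at 5000 UMIs were 311 cells in p16-LRTD and 213 in p16-Alb-LRTD, with Col1a1 at 8334 and 2345 CPM. Members with neither were 165 and 144 cells, with Col1a1 at 5556 and 1297 CPM, which was still above the 1221 and 332.3 CPM of the other HSCs.

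The study asked whether removing p16-high hepatocytes changes HSC activation, and the same comparison was made within the members. Fibrillar collagen RNA of members was lower in p16-Alb-LRTD than in p16-LRTD. Col1a1 went from 6997 to 1870 CPM, which is -1.90 on the log2 scale (-1.92 to -1.88), beside -1.88 (-1.89 to -1.86) in the other HSCs. Col1a2 went from 6385 to 2165 CPM (-1.56, -1.58 to -1.54) and Col3a1 from 9522 to 2532 CPM (-1.91, -1.93 to -1.89), where the other HSCs had log2 ratios of -1.02 and -1.47. The log2 difference in Col1a1 between genotypes was thus about as large inside as outside the members, a ratio of ratios of -0.03 (-0.05 to -0.00) on the log2 scale, whereas for Col1a2 and Col3a1 it was larger inside, by -0.54 (-0.57 to -0.52) and -0.44 (-0.46 to -0.42).

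Of 8835 genes with at least 10 CPM on average in members, 105 were at least 2-fold higher in p16-Alb-LRTD (1.19%) and 68 at least 2-fold lower (0.770%). Of 7 fibrillar collagens counted, 4 were 2-fold lower (Col1a1, Col1a2, Col3a1 and Col5a2) and 0 higher, beside 0.770% of all genes. Of 13 matricellular genes, 4 were lower, namely Sparc, Postn, Wisp1 and Cthrc1, and of 23 processing genes, Lox was. Sparc, a collagen-binding glycoprotein, went from 7901 to 3053 CPM, and Cthrc1 from 33.1 to 4.89 CPM. The median log2 ratio over the fibrillar list in members was -1.43, beside -1.02 for the same list in other HSCs and 0.01 over all genes in members.

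Several genes that were high in members had similar levels in both genotypes. Wt1 (log2 ratio 0.22, 0.16 to 0.28), Eln (0.12) and the fibrillar collagen Col27a1 (-0.04) lay near 0, and Mmp2 (0.35) and Igf1 (-0.52) were less than 2-fold apart. The score genes are bounded by the rule within each library, so that the ratios of Alcam (-0.11) and Svep1 (0.53) are a description from which nothing is read.

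Of 8 contractile genes counted, Acta2 and Tagln were 2-fold lower in members of p16-Alb-LRTD and 0 higher. Tagln, an actin-binding protein, went from 702.1 to 270.5 CPM in members (-1.38) and from 594.6 to 438.2 CPM in other HSCs (-0.44). The genes with the lowest genotype ratios in members were Vegfd (75.4 to 11.9 CPM), S100a6, Serpina3n, Timp1, Col3a1, Col1a1, Fam19a2, Col15a1, Acta2 and Col1a2. S100a6, a calcium-binding protein, went from 488.7 to 96.3 CPM, and Timp1, the metalloproteinase inhibitor, from 88.6 to 21.9 CPM.

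Glucocorticoid and interferon genes were higher in members of p16-Alb-LRTD. All 10 glucocorticoid response genes measured had a log2 ratio above 0, as did 5466 of 10410 genes in all, and Fkbp5, Zbtb16 and Pdk4 were 2-fold higher. Zbtb16, a hormone-induced transcription factor, went from 56.9 to 660.9 CPM in members and from 59.3 to 643.6 CPM in other HSCs. All 10 interferon response genes were above 0 as well, and 7 were 2-fold higher (Isg15, Ifit1, Ifit3, Rsad2, Irf7, Oasl2 and Usp18). Isg15, a ubiquitin-like protein, went from 105.9 to 232.0 CPM in members and from 172.5 to 373.4 CPM in other HSCs, with log2 ratios of 1.13 and 1.11. The other HSCs had like ratios, with list medians of 0.83 and 1.01 in other HSCs beside 0.72 and 1.18 in members. All 12 early-response genes of dissociation were also above 0 in members, with a median of 0.44, and the part of cell handling in the genotype ratios was not tested. Within each library, interferon genes were lower in members than in other HSCs for 9 of 10 in p16-LRTD and 10 of 10 in p16-Alb-LRTD. Over all genes, 5313 of 10412 and 4483 of 10317 were lower. The list medians of that contrast were -0.56 and -0.53, and 0 of the 10 were 2-fold lower in both libraries.

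The highest genotype ratios in members were those of Zbtb16, Ly6a, Fkbp5, Ampd3, Slco2b1, Cxcl10, Gsdme, Fam13a, Ifi44 and Xdh. Ly6a, a surface protein of stem and interferon-exposed cells, went from 96.1 to 445.7 CPM. In the LIFR and STAT3 list 1 of 14 genes, Cntfr, a receptor subunit of the same cytokine family, was 2-fold higher in members of p16-Alb-LRTD, from 10.0 to 22.2 CPM, and 0 were lower. Lifr itself was at 324.8 and 315.7 CPM in members. No gene of the TGF-beta list of 18 was 2-fold apart between the genotypes in members.

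**Figure D5:**
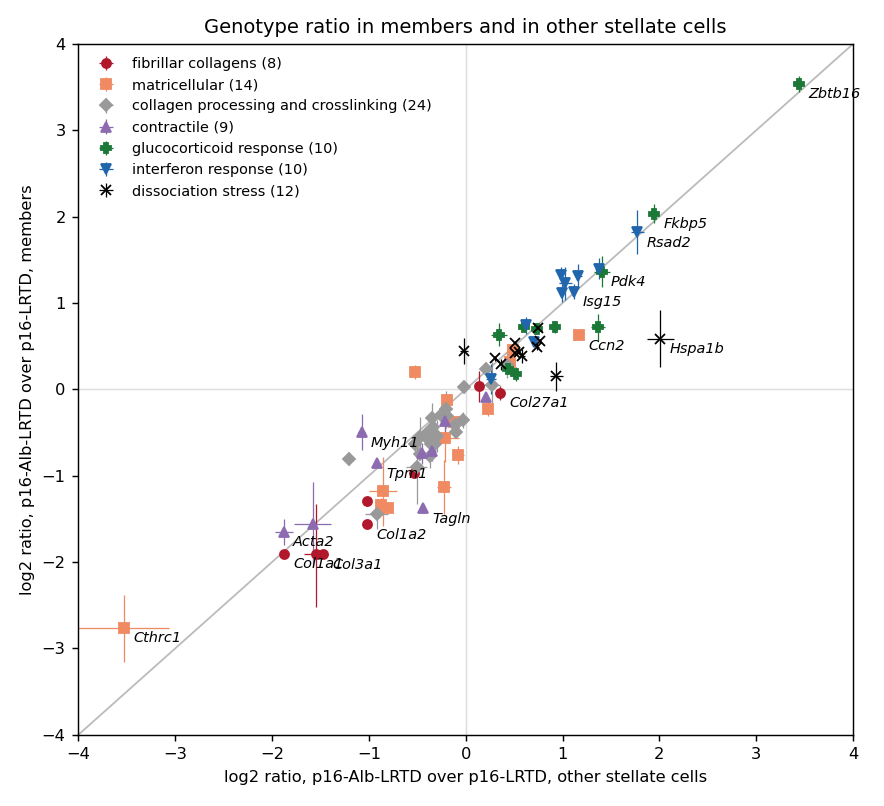
Log2 ratio of p16-Alb-LRTD to p16-LRTD in other HSCs (horizontal axis) and in members (vertical axis) for genes with at least 5 CPM on average, 1 point per gene with its 95% counting interval, coloured by list, and the line of equal ratios in grey. Most fibrillar collagens, though not Col27a1 and Col24a1, lie at the lower left, Col1a1 on the line at -1.88 and -1.90 and Col3a1 below it at -1.47 and -1.91, while glucocorticoid and interferon genes lie at the upper right along the line.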

How the data were processed

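The authors deposited raw UMI counts, which they had obtained from 10x 3' libraries with Cell Ranger 7.0.1 and mm10; 31054 features were listed, and coordinates came from GENCODE vM21 (GRCm38). The counts of all cells in a group were added up and scaled to a total of 1000000 (CPM). The members and the gene lists were chosen with earlier results of these data known. A gene was counted as 2-fold apart at 10 CPM or more on average, and list medians used genes at 5 CPM or more. Named genes were the highest or most extreme of each list, the 12 highest and 8 lowest member ratios outside the lists, and the 10 highest and 10 lowest genotype ratios, at 50 CPM or more. Further genes of the lists, such as Serpinh1, P4ha1, Lhx2, Hand2 and Cthrc1, were named after their values were seen. Intervals were exact (Poisson for counts, conditional binomial for ratios, Clopper-Pearson for shares), except for the ratio of ratios. That interval was a normal approximation on the log scale. No doublet caller was run; the upper limits on genes and UMIs were the guard, and an alternative left out cells with other cell types' markers. Total UMIs were 193746596 in p16-LRTD and 162219167 in p16-Alb-LRTD. The scripts were tested on simulated data. Python 3.11.15, scipy 1.17.1 and scikit-learn 1.9.0 were used, and edgeR 4.0.16 for TMM factors only. Some genes of the lists are not reported here by name.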

Additional observations from a re-analysis of the deposited data

Results flagged for a closer look

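The tdTomato transcript was outside the comparisons above and stood at 8.25 CPM in members of p16-Alb-LRTD (108 UMIs, 6.77 to 9.96) and at 3.07 CPM in those of p16-LRTD (54 UMIs, 2.30 to 4.00), with 5.52 and 3.08 CPM in the other HSCs. The following genes had ratios of opposite sign in 2 groups, and these differences were not tested. Cdk1, a mitotic kinase, had a log2 ratio of members to other HSCs of -0.70 in p16-LRTD and 0.49 in p16-Alb-LRTD. Ctgf, a matricellular gene, had 0.27 and -0.28 on the same scale. Between genotypes, the log2 ratio of p16-Alb-LRTD to p16-LRTD for Colec11 was 0.27 in members and -0.29 in other HSCs. The endothelial genes Fcgr2b (-1.18 and 0.56), Ptprb (-0.89 and 0.72) and Stab2 (-1.95 and 0.30) also differed in sign, at no more than 11.2 CPM in members of either library.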

How the results depend on the processing

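Alternatives were run for the Col1a1 ratios, the fibrillar collagen medians, the counts of genes 2-fold apart and the share at the cutoff; none of the ratios or medians changed sign, and no test was made. The Col1a1 log2 ratio of members to other HSCs in p16-LRTD, 2.52 as reported, was 2.32 with the top 5% as members, 2.82 with the top 20%, 2.47 with scores after thinning, 2.54 with cells of 10000 to 30000 UMIs, 2.35 without Alcam in the score, 2.45 without Svep1, 2.48 without Fbn2, 2.54 without Ano4, 2.44 without cells with other types' markers, 2.50 with up to 10% mitochondrial UMIs, 2.37 without upper limits, 2.68 as the mean of per-cell CPM, 2.48 with TMM factors, 2.49 with median-of-ratios factors. The same ratio in p16-Alb-LRTD, 2.49 as reported, was 2.53 with the top 5% as members, 2.35 with the top 20%, 2.43 with scores after thinning, 2.44 without Alcam in the score, 2.46 without Svep1, 2.46 without Fbn2, 2.40 with a gate of 30 per 10000 UMIs, 2.45 without cells with other types' markers, 2.52 with up to 10% mitochondrial UMIs, 2.36 with TMM factors, 2.39 with median-of-ratios factors. The Col1a1 genotype log2 ratio in members, -1.90 as reported, was -1.77 with the top 5% as members, -2.03 with the top 20%, -1.87 with cells of 10000 to 30000 UMIs, -1.84 without Alcam in the score, -1.93 without Ano4, -1.95 with a gate of 30 per 10000 UMIs, -1.88 without cells with other types' markers, -1.87 with up to 10% mitochondrial UMIs, -1.88 without upper limits, -1.87 as the mean of per-cell CPM, -1.95 with TMM factors, -1.93 with median-of-ratios factors. The fibrillar collagen median of members over other HSCs in p16-LRTD, 1.501 as reported, was 1.30 with the top 5% as members, 1.68 with the top 20%, 1.48 with scores after thinning, 1.47 without Alcam in the score, 1.47 without Svep1, 1.56 with a gate of 30 per 10000 UMIs, 1.45 without cells with other types' markers, 1.40 without upper limits, 1.61 as the mean of per-cell CPM, 1.46 with TMM factors, 1.47 with median-of-ratios factors. That median in p16-Alb-LRTD, 1.17 as reported, was 1.31 with the top 5% as members, 1.11 with the top 20%, 1.11 with a gate of 30 per 10000 UMIs, 1.04 with TMM factors, 1.07 with median-of-ratios factors. The fibrillar genotype median in members, -1.43 as reported, was -1.12 with the top 5% as members, -1.50 with the top 20%, -1.24 with cells of 10000 to 30000 UMIs, -1.49 with a gate of 30 per 10000 UMIs, -1.38 as the mean of per-cell CPM, -1.47 with TMM factors. With a minimum of 1 CPM, 625 genes in place of 277 were 2-fold higher in members in both libraries, and 595 in place of 173 were 2-fold apart between genotypes. The share of p16-Alb-LRTD HSCs at the p16-LRTD cutoff, 10.0% as reported, was 8.31% without Alcam in the score, 9.13% without Svep1 and 11.6% without Ano4. TMM factors moved all log2 ratios of members to other HSCs in p16-Alb-LRTD by -0.13 and median-of-ratios factors by -0.11, so ratios there within that distance of 0 have no firm sign. No paired analysis was possible because a single library stood for either genotype. Intervals cover counting error only, and genes under 5 CPM, doublets and free RNA limit what can be read.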
